A study of Mus musculus with 8 samples.

Results

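A set of 10 secreted or intracellular components of the Wnt pathway was followed across cultured mouse primary myoblasts: the ligands Wnt4, Wnt5a and Wnt9a, the R-spondins Rspo1 and Rspo3, the scaffold Axin2, and the secreted modulators Sfrp1, Sfrp2, Dkk2 and Dkk3. They were taken by name, as the rows whose only gene symbol in the array annotation was one of these 10, and all 10 were found among 19938 genes. Wnt4 had 2 probe sets, of which the one with the higher mean was used, and each of the others had 1.

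Wnt ligands bind Frizzled receptors on the cell surface. In the branch that works through β-catenin, this protects β-catenin from a destruction complex built on Axin, so that it can act with TCF/LEF factors in the nucleus. R-spondins amplify that signal through Lgr receptors, while Sfrp proteins bind Wnts outside the cell and several Dkk proteins block the Lrp co-receptors. In skeletal muscle, Wnt signals are known for their part in satellite cell division and in the commitment and differentiation of myoblasts. Axin2 is both an inhibitor and a widely used target gene of the β-catenin branch.

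The question behind the series was which genes of myoblasts need Runx1, a transcription factor. It holds 4 arrays labelled WT and 4 labelled Runx1f/f, numbered 1 to 4 in each. All cells were grown from gastrocnemius satellite cells of C57bl/6 mice aged 2 to 3 weeks, on Matrigel in proliferation medium. The label Runx1f/f denotes a floxed Runx1 allele, and the labels also call these cells knockout; the sources used here name no Cre and no deleted part of Runx1, and do not say whether an array pools animals. The labels call the numbered samples biological replicates but describe no separate mice or cultures. The p-values therefore measure only the spread between these samples. Values are log2 intensities from 1-colour Affymetrix MoGene 1.0 ST arrays, and medians over genes ran from 4.40 to 4.44. Precision is limited by having 4 arrays per label.

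The deposited columns cannot be used to compare the labelled genotypes. In every one of 35399 rows, averaging the 4 WT columns, averaging Runx1f/f 1 with 2 and averaging Runx1f/f 3 with 4 gave the same value to within 7.5e-05. For any gene, Runx1f/f 1 and 2 therefore lie equally far from that shared mean on opposite sides, and so do Runx1f/f 3 and 4. Whether each column holds the sample named in its header could not be checked from these values, so WT and Runx1f/f are used here only as the labels of columns. Levels are therefore described by array number, numbers 2 and 3 of both labels against numbers 1 and 4. This split was noticed in these data and has no meaning in the labels, so the levels on its sides are given without a test. Runx1 itself read 9.89 to 10.27 on the 4 arrays numbered 2 and 3 and 9.15 to 9.44 on the 4 numbered 1 and 4.

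The cells carried the markers of myoblasts. All 10 myoblast markers read well above the array medians on all 8 arrays, with Myod1, which specifies the lineage, at 11.12 to 11.57 and desmin (Des) at 11.13 to 11.47. All 6 endothelial markers, 6 of 7 macrophage and leukocyte markers, 4 of 5 adipocyte markers and 4 of 4 measured Schwann and neural markers lay below the array median on all 8 arrays. Of 11 fibroblast and fibro-adipogenic markers, 6 did so, among them the defining receptor Pdgfra at 3.40 to 3.63 and decorin (Dcn) at 3.43 to 3.58. Of 7 smooth muscle and pericyte markers, 3 lay below the array median on all arrays. The smooth muscle actin Acta2 read 11.49 to 11.91, Rgs5 7.89 to 8.96 and Tagln 5.60 to 7.10. The collagens Col1a2 and Col3a1 from the fibroblast list read 9.13 to 10.39 and 8.60 to 9.21. Fewer cells of a type and less RNA per cell cannot be told apart in such bulk samples.

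Sequence upstream of the start site was held for 6 of the 10 members in a RefSeq table of GRCm38.p6 (Wnt4, Wnt9a, Rspo1, Axin2, Sfrp2 and Dkk2). The 250 bases before the start were searched on both strands for letters bound by factors that the series names or that end the Wnt pathway. For Runx, the letters TGTGGT were found in 0 of the 6 and in 14.0% of 32851 promoters of the same length, and TGCGGT in 0 of the 6 and in 5.10%. The AP-1 motif TGACTCA, which reads TGAGTCA on the other strand, was found in 0 of the 6 and in 4.46% of all. For TCF/LEF, 0 of the 6 held CTTTGAA, present in 4.46% of all, 0 held CTTTGAT, present in 3.21%, and 0 held CTTTGTT, present in 5.03%. The general E-box CANNTG was present in Wnt4 and Wnt9a, against 66.2% of all promoters. CAGCTG, a form of that E-box preferred by MyoD and counted within it, was present in Wnt9a alone among the 6, starting 74 bases before the start site, and in 13.0% of all promoters.

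Printed below are the stretches of Dkk2 and Wnt9a that precede the annotated span of each gene, Dkk2 because its arrays parted by number and Wnt9a because it held an E-box there. They are 224 and 169 of the 250 bases searched, and the CAGCTG of Wnt9a lies past the printed end. Both are on the plus strand, at chr3:132085042-132085265 for Dkk2 and chr11:59306680-59306848 for Wnt9a, and capitals mark CANNTG matches.
Dkk2: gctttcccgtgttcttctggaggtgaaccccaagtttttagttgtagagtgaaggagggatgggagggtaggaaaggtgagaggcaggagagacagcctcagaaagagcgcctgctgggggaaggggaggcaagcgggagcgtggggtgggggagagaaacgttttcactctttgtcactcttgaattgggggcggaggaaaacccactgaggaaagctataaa
Wnt9a: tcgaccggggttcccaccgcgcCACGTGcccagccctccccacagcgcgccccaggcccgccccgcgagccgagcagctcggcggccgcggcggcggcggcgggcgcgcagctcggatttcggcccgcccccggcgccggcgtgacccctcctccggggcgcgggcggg
The capitals in Wnt9a read CACGTG, not the CAGCTG form, and start 228 bases before its start site. A match is a description of letters and not of binding.

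In all 10 members the WT mean and the Runx1f/f mean were the same to within 2.5e-06. Of 19938 genes, limma called 0 in either direction with Runx1f/f as the label compared (0% higher and 0% lower at an adjusted p under 0.05), 0 had an unadjusted p under 0.05, and 0 of the 10 members were called. Equal column means fixed these counts in advance, so they do not measure whether Runx1 loss alters Wnt genes.

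Most members gave dim signal. Wnt4, Wnt5a, Rspo1, Rspo3, Axin2, Sfrp1 and Dkk2, 7 of the 10, lay below the array median on all 8 arrays, as did 9476 of all genes (47.5%). Wnt9a and Dkk3 lay above it on all 8 arrays, and Sfrp2 on all but Runx1f/f 1. Probe sets differ in how brightly they report a transcript, so levels are not compared between genes, and differences of dim probe sets understate changes of the RNA. The range from the lowest to the highest array had a median of 0.27 over the 10 members and 0.25 over all genes, and exceeded 1 on the log2 scale in 1 member and in 3.78% of all genes.

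**Figure D1:**
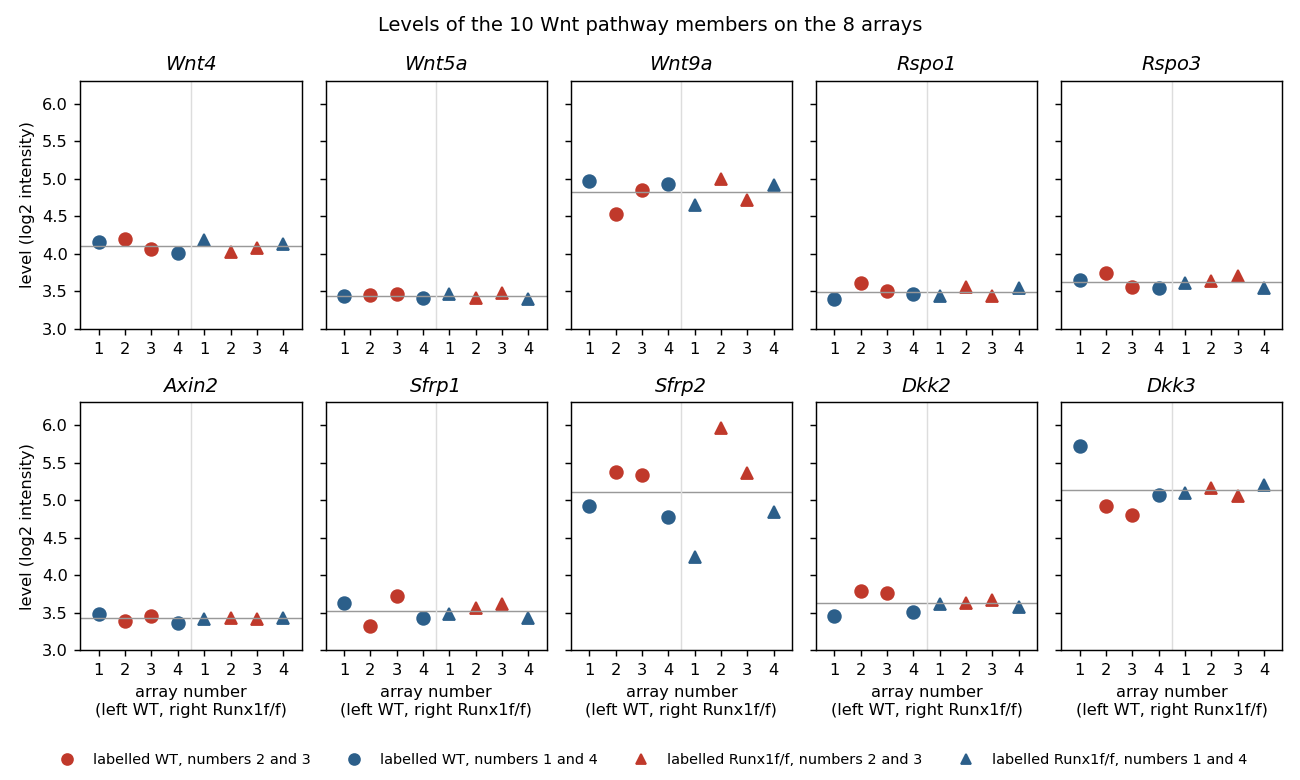
Each panel plots 1 gene, with the log2 intensity of each of the 8 arrays as a point and the mean of the 8 as a grey line; circles are arrays labelled WT, triangles those labelled Runx1f/f, red marks numbers 2 and 3 and blue numbers 1 and 4. Sfrp2 spreads from 4.25 to 5.95 with every red point above every blue one, Dkk3 has 1 high array (WT 1, 5.72), and Wnt5a and Axin2 are nearly flat.

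Wnt9a had the widest range of the 3 member ligands. It read 4.97, 4.53, 4.85 and 4.92 across WT 1 to 4, against 4.65, 4.99, 4.72 and 4.92 across Runx1f/f 1 to 4. Its lowest array was WT 2 and its highest Runx1f/f 2, so number 2 held both ends and the sides overlapped. The mean of numbers 2 and 3 minus that of 1 and 4 was -0.25 in arrays labelled WT and 0.07 in arrays labelled Runx1f/f, opposite in sign.

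Wnt4, a ligand known from kidney and reproductive tract development, read 4.15, 4.20, 4.06 and 4.01 across WT 1 to 4, against 4.19, 4.02, 4.08 and 4.13 across Runx1f/f 1 to 4. The 8 values spanned 0.19, and numbers 2 and 3 were mixed with 1 and 4. Its dimmer probe set read 3.30 to 3.53. For the noncanonical ligand Wnt5a, the arrays read 3.44, 3.45, 3.46 and 3.41 across WT 1 to 4, against 3.47, 3.41, 3.48 and 3.40 across Runx1f/f 1 to 4, a range of 0.07. No array stood out for either gene, and both ranges were below the median range of all genes.

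The R-spondins were dim on all arrays. Rspo1 read 3.40, 3.61, 3.51 and 3.46 across WT 1 to 4, against 3.43, 3.56, 3.44 and 3.55 across Runx1f/f 1 to 4. In both labels number 2 was the highest and number 1 the lowest, but Runx1f/f 4 lay above Runx1f/f 3, so the sides overlapped. Rspo3 read 3.65, 3.74, 3.56 and 3.55 across WT 1 to 4, against 3.61, 3.64, 3.71 and 3.55 across Runx1f/f 1 to 4. Number 4 was the lowest of its label in both cases, and the difference between the sides was 0.07 for each R-spondin. Among the R-spondin receptors, Lgr4 read 6.12 to 6.83 and Lgr5 3.88 to 4.12.

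Axin2, the β-catenin target and feedback inhibitor, showed the same level on both sides. It read 3.49, 3.40, 3.46 and 3.37 across WT 1 to 4, against 3.42, 3.43, 3.42 and 3.44 across Runx1f/f 1 to 4. The means of numbers 2 and 3 and of numbers 1 and 4 were both 3.43. The 4 arrays labelled Runx1f/f read 3.42 to 3.44 and those labelled WT 3.37 to 3.49. Because the Runx1f/f arrays mirror each other in pairs, these spreads are not compared. Axin2 lay below the array median on all 8 arrays, so its level was not read as a measure of β-catenin signals.

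Sfrp2 (chr3:83765750-83774314, GRCm38.p6), a secreted Wnt-binding protein, varied more between arrays than any of the other 9 members. The gene read 4.92, 5.37, 5.34 and 4.77 across WT 1 to 4, against 4.25, 5.95, 5.36 and 4.85 across Runx1f/f 1 to 4. All 4 arrays numbered 2 and 3 lay above all 4 numbered 1 and 4, with 0.41 between the nearest arrays of the sides. The means were 5.50 ± 0.30 (SD, n = 4) and 4.70 ± 0.30 (SD, n = 4), a difference of 0.81 on the log2 scale or 1.75-fold. The difference was 0.51 in arrays labelled WT and 1.11 in arrays labelled Runx1f/f, and with 1 array left out it ran from 0.66 to 0.88 with the sides still apart. Because Runx1f/f 1 and 2 mirror each other by construction, the lowest and highest arrays of Sfrp2 are not independent observations. Runx1f/f 3 and 4 do so too, so the sides are coupled and n = 4 counts arrays, not independent observations. Leaving out either array of a mirrored pair gave the same difference, 0.66 for Runx1f/f 1 or 2 and 0.86 for Runx1f/f 3 or 4.

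Sfrp1, the close relative of Sfrp2, did not share that pattern. It read 3.63, 3.32, 3.72 and 3.43 across WT 1 to 4, against 3.49, 3.56, 3.62 and 3.43 across Runx1f/f 1 to 4. WT 2 was its lowest and WT 3 its highest array, so numbers 2 and 3 lay at opposite ends, and the difference between the sides was -0.01 in WT and 0.13 in Runx1f/f.

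Dkk2 and Dkk3 leaned in opposite directions. Dkk2 (chr3:132085266-132180304), a modulator of Lrp co-receptors, read 3.46, 3.78, 3.76 and 3.50 across WT 1 to 4, against 3.62, 3.63, 3.67 and 3.58 across Runx1f/f 1 to 4. Its sides did not overlap either, but only 0.01 separated Runx1f/f 1 from Runx1f/f 2, and the whole range was 0.33. The difference between the sides was 0.29 in WT and 0.05 in Runx1f/f.

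Dkk3 (chr7:112116019-112159482), a divergent Dkk protein not known as a direct Lrp blocker, read 5.72, 4.92, 4.80 and 5.06 across WT 1 to 4, against 5.09, 5.16, 5.05 and 5.20 across Runx1f/f 1 to 4. WT 1 was the highest array and Runx1f/f 4, at 5.20, the next. The mean of numbers 2 and 3 was 0.29 below that of 1 and 4, and 0.14 below without WT 1. The sides overlapped through Runx1f/f 2 alone, and without that array they were apart.

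Counted together, 2 of the 10 members (Sfrp2 and Dkk2) had all arrays numbered 2 and 3 above those numbered 1 and 4, and 0 had them all below. Over all 19938 genes, 9.87% were above and 10.5% below, or 20.4% either way. Among genes with a mean under 5, which include 8 of the members, 5.98% were above and 5.26% below. Among genes with a mean of 5 or more the shares were 14.6% and 16.9%. A count of 2 in 10 is too small to be read as a result about the members. Of the 10 differences between the sides, 7 were positive and 3 negative, and 6 had the same sign within both labels. The positive ones include Axin2 at 1.5e-05, which is within the rounding of the values. Signs were not counted over all genes. The median of the 10 differences was 0.04, beside -0.01 for all genes. It was 0.01 without WT 3, 0.03 without WT 4, Runx1f/f 3 or Runx1f/f 4, and -0.03 among the arrays with source numbers 139 to 142.

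**Figure D2:**
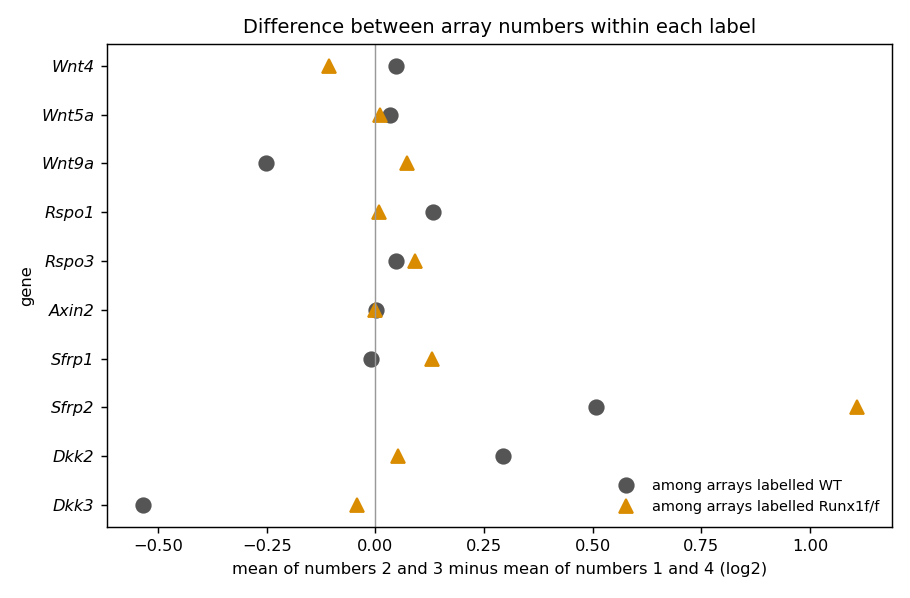
For each gene, the mean of arrays numbered 2 and 3 minus the mean of arrays numbered 1 and 4 is plotted on the log2 scale, as a grey circle within arrays labelled WT and an orange triangle within arrays labelled Runx1f/f. Sfrp2 lies to the right in both labels (0.51 and 1.11), Dkk3 to the left mainly in WT (-0.53, against -0.04), and Wnt4, Wnt9a and Sfrp1 have opposite signs in the 2 labels, as does Axin2 with both values near 0.

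Source numbers in the labels fall into 3 runs, 139 to 142, 160 to 161, and 181 and 189, of unstated meaning. The first run holds arrays 1 and 2 of both labels, whereas numbers 3 and 4 are each a run of their own, where number and run cannot be told apart. Within the first run, number 2 exceeded number 1 for Sfrp2 by 0.45 in WT and 1.70 in Runx1f/f. For Dkk2 the corresponding differences were 0.33 and 0.01, and for Dkk3 they were -0.81 and 0.07. For Rspo1 they were 0.21 and 0.13. In 3 members, Rspo1, Sfrp2 and Dkk2, both arrays numbered 2 lay above both arrays numbered 1, across labels. The share of all genes that did so was not counted, and Runx1f/f 1 and 2 mirror each other. The 3 are therefore not a result about the members. Rspo3 was higher on number 2 within each label, by 0.09 and 0.02, but overlapped across them.

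Profiles were then compared over the 8 arrays by the root mean square distance between levels centred on each gene's mean, for members with a range above 1, which only Sfrp2 had. The closest of all other genes were Tnnc1, the troponin C of slow and cardiac muscle, at 0.10, Ldb3, a Z-disc protein, at 0.10, and Hjv, the BMP co-receptor hemojuvelin, at 0.11. Centred on its own mean, Sfrp2 had a root mean square of 0.48. Tnnc1 read 11.85, 12.21, 12.28 and 11.61 across WT 1 to 4, against 11.27, 12.70, 12.11 and 11.86 across Runx1f/f 1 to 4. Its sides were apart like those of Sfrp2, with Runx1f/f 1 lowest and Runx1f/f 2 highest. The 3 genes were picked by closeness to Sfrp2, so a shared pattern follows from the choice. The difference between the sides was 0.68 for Tnnc1, 0.83 for Ldb3 and 0.90 for Hjv. Myogenin (Myog), which drives terminal differentiation, also had its sides apart. It read 11.48 to 11.94 on numbers 2 and 3 and 10.74 to 11.20 on numbers 1 and 4. Of the 10 myoblast markers, Myog, Des and Cdh15 were above, and Myf5, Myod1 and Chrna1 below. Myf5 read 7.54 to 7.90 on numbers 2 and 3 and 8.31 to 8.71 on numbers 1 and 4. Over all genes, 20.4% parted either way.

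**Figure D3:**
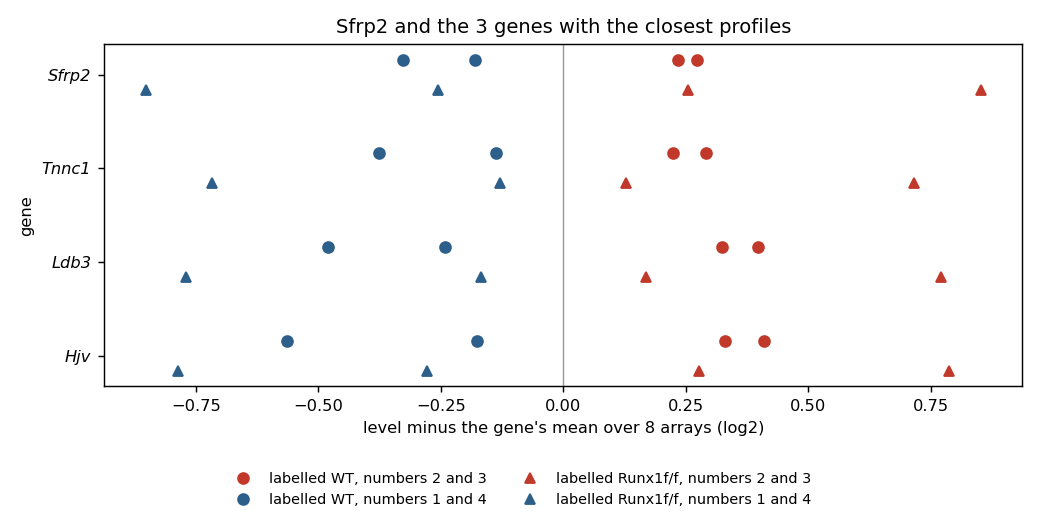
Levels minus the gene's mean over the 8 arrays, on the log2 scale, for Sfrp2 and the 3 genes with the smallest profile distance (0.10, 0.10 and 0.11); circles are arrays labelled WT, triangles Runx1f/f, red numbers 2 and 3, blue numbers 1 and 4. In each of the 4 genes all red points lie right of all blue points, and Runx1f/f 1 and 2 form the ends. This likeness follows from picking the genes by distance to Sfrp2.

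Some markers of other cells also differed between the sides. The mean level over the 11 fibroblast markers was 4.99 to 5.12 on numbers 2 and 3 and 5.01 to 5.14 on numbers 1 and 4, and 1 of the 11, Fbln1, had its sides apart, with numbers 2 and 3 below, where 20.4% of all genes parted either way. Over 7 smooth muscle and pericyte markers the mean was 5.84 to 6.21 and 5.79 to 6.13, with 2 of the 7, Pdgfrb and Cspg4, above. Cspg4, a proteoglycan of pericytes, read 4.67 to 5.29 on numbers 2 and 3 and 4.03 to 4.48 on numbers 1 and 4. Rgs5 and Tagln of that list leaned the other way and overlapped, with differences of -0.49 and -0.45. Mean levels of 3 lists did not overlap between the sides. For the 6 endothelial markers the mean was 3.50 to 3.52 on numbers 2 and 3 and 3.55 to 3.57 on numbers 1 and 4, for the 7 macrophage and leukocyte markers 3.64 to 3.70 and 3.59 to 3.63, and for the 5 adipocyte markers 3.92 to 3.99 and 4.05 to 4.12. In the adipocyte list only Pparg, a regulator of adipogenesis, parted, at 4.91 to 5.39 on numbers 2 and 3 and 5.65 to 6.17 on numbers 1 and 4. Pecam1, Tek and Emcn were below and Kdr above among the endothelial markers, and Csf1r and Itgam above among those of macrophages. The gaps between their sides were small, at 0.12, 0.10, 0.03 and 0.007 for the endothelial markers. For Csf1r and Itgam they were 0.05 and 0.08. The defining markers of those lists (Cdh5, Ptprc and Adipoq) read 3.46 to 3.57, 3.52 to 3.68 and 3.44 to 3.63 on the 8 arrays. The part of these cells in the levels of Sfrp2, Dkk2 and Dkk3 was not tested.

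The rest of the pathway was read from 79 further genes, of which 78 were measured (Tcf7 was not). Between the labelled genotypes limma called 0 of them in either direction, again fixed by the equal means. Between the sides, 10 were above and 13 below on numbers 2 and 3, or 12.8% and 16.7%, beside the 9.87% and 10.5% of all genes. Those shares depend on brightness. Among genes with a mean of 5 or more they were 14.6% and 16.9%, and among genes with a mean under 5 they were 5.98% and 5.26%.

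Other ligands were dim, with 17 of 18 below the array median on all 8 arrays. Wnt7b was the exception and read 4.76, 5.32, 5.12 and 5.72 across WT 1 to 4, against 5.74, 4.72, 5.03 and 5.43 across Runx1f/f 1 to 4. WT 4 and Runx1f/f 1 were highest, and WT 1 overlapped the lowest arrays. Wnt10b, a ligand known to oppose adipogenesis in myoblasts, read 3.31 to 3.72 on numbers 2 and 3 and 3.75 to 4.05 on numbers 1 and 4.

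Both genes for Wnt secretion varied widely. Porcn, the acyltransferase that lipidates Wnts, read 6.37, 4.76, 4.40 and 5.79 across WT 1 to 4, against 5.50, 5.17, 4.94 and 5.72 across Runx1f/f 1 to 4. Numbers 2 and 3 were all below numbers 1 and 4, by 1.03 on average. Wls, the carrier that takes Wnts to the cell surface, read 10.78, 9.52, 9.59 and 10.26 across WT 1 to 4, against 10.05, 10.03, 10.09 and 9.99 across Runx1f/f 1 to 4. Its WT arrays parted by number, and its Runx1f/f arrays, mirrored in pairs, all lay between 9.99 and 10.09.

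Receptors parted about as often as genes at large (20.4%). Fzd3, Fzd4 and Fzd9 were above and Fzd6 and the R-spondin-regulated ligase Rnf43 below on numbers 2 and 3, or 5 of 20. The gap between the sides was only 7e-05 for Fzd3, which is within the rounding of the values, and 0.0024 for Rnf43. Fzd6 read 5.06 to 5.91 on numbers 2 and 3 and 6.00 to 6.85 on numbers 1 and 4, a difference of -1.05. Fzd9 read 4.78 to 5.27 against 4.08 to 4.53, and Fzd4 read 5.79 to 6.00 against 5.00 to 5.35. The R-spondin receptor Lgr6 had 1 high array, WT 1 at 4.77, with the others at 3.04 to 3.76.

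Among 11 other secreted or surface antagonists and their partners, Kremen2, a Dkk co-receptor, parted most clearly. Kremen2 read 4.22, 5.21, 5.19 and 4.36 across WT 1 to 4, against 4.16, 5.33, 5.23 and 4.26 across Runx1f/f 1 to 4. Every array numbered 2 or 3 read 5.19 or more and every other array 4.36 or less, a difference of 0.99. Its paralog Kremen1 lay the other way, at 7.89 to 8.08 on numbers 2 and 3 and 8.20 to 8.47 on numbers 1 and 4. Frzb, an Sfrp relative, was also below but spanned only 0.15, with a gap of 0.0048 between the sides. Sostdc1 and Sost overlapped, with ranges of 1.32 and 0.90.

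Inside the cell, 4 of 18 genes were above (the kinase Csnk1a1, the ligase subunit Btrc, the β-catenin partner Bcl9 and Tcf7l1) and 2 below (Dvl1 and Apc2), beside 9.87% and 10.5% of all genes. The gap between the sides was only 0.0026 for Apc2 and 0.017 for Btrc. Tcf7l1, a TCF factor that mostly represses, read 5.80 to 6.18 on numbers 2 and 3 and 5.20 to 5.40 on numbers 1 and 4. Dvl1, which relays the signal from Frizzled, read 6.68 to 6.85 against 7.02 to 7.28. Tcf7l2, another TCF factor, overlapped and read 7.18 to 7.61 over the 8 arrays. β-catenin (Ctnnb1) overlapped, at 10.99 to 11.20 and 11.00 to 11.23.

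Of 9 target and feedback genes, 2 were above and 4 below, beside 9.87% and 10.5% of all genes. The receptor Tnfrsf19 read 5.17 to 5.33 on numbers 2 and 3 and 4.51 to 4.78 on numbers 1 and 4, and the feedback inhibitor Nkd1 read 4.46 to 4.94 and 4.03 to 4.40. Cyclin D1 (Ccnd1), which drives entry into the cell cycle, read 10.64 to 10.93 and 11.04 to 11.28. Myc, Lbh and Sp5 were below as well, by 0.18, 0.29 and 0.10, with only 0.012 between the nearest arrays of the sides for Myc and 0.013 for Sp5. Apcdd1, a membrane inhibitor of Wnt signals, overlapped and read 4.63 to 5.44, and Axin2 overlapped as well.

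**Figure D4:**
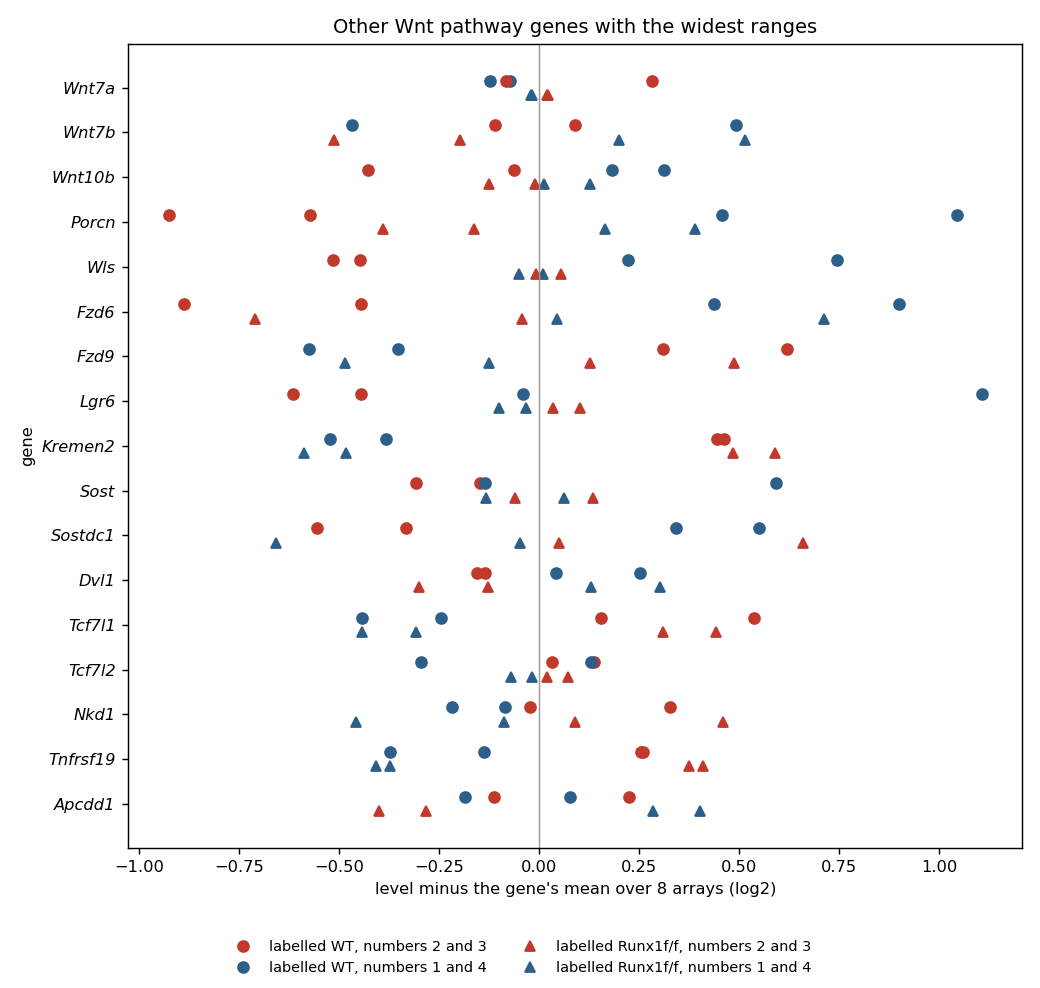
Level minus the gene's mean over the 8 arrays (log2) for the 3 genes with the widest range in each of the other Wnt pathway lists, or both secretion genes; circles are arrays labelled WT, triangles Runx1f/f, red numbers 2 and 3, blue numbers 1 and 4. Kremen2, Tcf7l1, Tnfrsf19, Fzd9 and Nkd1 have red points to the right, Porcn, Fzd6, Dvl1 and Wnt10b to the left, and Wls and Lgr6 spread mainly among arrays labelled WT.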

How the data were processed

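Total RNA (200 ng per array) of the 8 samples was measured. The authors deposited log2 intensities, 1 per probe set and array; the submitters' processing notes list RMA and Partek with no version, and no later adjustment is recorded. Columns were assigned by the accession in their headers. Of the 35399 rows, 21789 had 1 gene symbol, 1621 several and 11989 were not annotated; the brightest probe set represented each of 19938 genes, without a filter. The labelled genotypes were tested in R 4.3.3 using limma 3.58.1 (linear model with empirical Bayes, two-sided, Benjamini-Hochberg over all genes). The fit was tried on simulated independent arrays with known changes. Those lacked the equal means of the deposited columns, so that trial does not bear on the calls given here. Array number sides were described without a test. The members and lists were chosen with earlier results of these data known. The text names all members, Runx1, listed markers, the 3 genes of widest range per pathway list and the 3 closest profiles; other pathway genes were named after their values were seen. Deviations of same-numbered arrays correlated by 0.39, 0.46, 0.60 and 0.57, so an alternative took the numbers as pairs, although equal column means couple these values, the labels state no pairing and 4 of 8 arrays correlated best with their own number. Other alternatives were scaling, probe set choice, a filter on dim genes, source number runs, the variance model, the threshold and each array left out. Scanner files were not used here.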

Additional observations from a re-analysis of the deposited data

Results flagged for a closer look

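Arrays lying far off within their label were looked for in 62 groups of 4 values (31 genes named here, in each label), and 1 was marked, where independent values would be marked by chance in about 5%. Wnt7a, a ligand known to promote the expansion of satellite cells, read 3.63 in WT 2, against 3.22 to 3.27 in the other arrays labelled WT. All 8 arrays of Wnt7a lay below the array median. The mirrored values of Runx1f/f 1 and 2 and of 3 and 4 prevent a mark in that label.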

How the results depend on the processing

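The counts of 0 genes and 0 members called between the labelled genotypes were the same under every alternative run, including the replicate block (0 and 0), which changed no other call. Settings that keep the equal means fix these counts, and leaving out 1 array only brings in that array's deviation, so these counts do not bear on how firm the result is. An unadjusted p under 0.05 was given by limma to 0 to 27 genes when 1 array was removed. The number of members above on numbers 2 and 3, 2 in the reported setting, was 1 of the 2 members left by the filter on dim genes (mean under 5), where the median difference was 0.26 in place of 0.04. With 1 array left out it was 2 throughout, and the number of members below ranged from 0 to 1, the 1 being Dkk3 without Runx1f/f 2. The median difference ran from 0.01 to 0.05 with 1 array left out and was -0.03 within source numbers 139 to 142, so its sign is not settled. Detection values were not used here, so no limit from signal over background is given.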
